A study of Homo sapiens with 18 samples.

Results

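Genes of mast cells and basophils were described across 2 human leukemia lines: the tryptases TPSAB1, TPSB2 and TPSD1, the granule protease CPA3, the histamine enzyme HDC, the IgE receptor chains MS4A2 and FCER1A, and the transcription factor GATA2. These 8 genes were selected by name, and with the U937 result in view, since TPSAB1 and TPSB2 were known to be lower after S100A9 knockdown. Of the 8, 7 had a row among the 18670 genes of the count table, and FCER1A was not analysed here.

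Tryptases are serine proteases that mast cells, and basophils at lower levels, store in their granules bound to the proteoglycan serglycin and release when IgE on the cell surface is crosslinked. TPSAB1 and TPSB2 together encode the alpha and beta tryptases, and TPSD1 the truncated delta tryptase. CPA3 encodes the carboxypeptidase stored with them, and HDC the enzyme that makes histamine from histidine. FCER1A and MS4A2 encode the IgE-binding alpha chain and the signal-amplifying beta chain of the high-affinity IgE receptor, and GATA2 is a zinc finger factor of blood stem cells that mast cells and basophils need for their development.

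U937 and THP-1 are human cell lines with features of monocytes, labelled as acute myeloid leukemia cells. RNA sequencing covered 6 groups of 3 libraries: U937 cells with a lentiviral S100A9 knockdown vector (shS100A9), U937 cells with an empty vector, THP-1 cells with a lentiviral S100A9 overexpression vector treated with Adavivint, THP-1 cells with an empty vector treated with Adavivint, and the untreated THP-1 cells with the overexpression vector or with the empty vector. All cells were cultured in the same medium and selected with puromycin at 2 µg/mL from 48 hours after transduction for at least 24 hours, and Adavivint was given at 1 µM for 36 hours. Adavivint, also called lorecivivint, blocks CLK and DYRK family kinases and lowers Wnt pathway output. S100A9 is a calcium-binding protein made by neutrophils and monocytes. The labels do not say whether a transduced line was a pool or a single clone, or whether replicates were separate cultures, so the spread between replicates may be technical.

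Depth lay between 38.4 and 84.4 M counts per library (M stands for 1e6), and levels are given as CPM, counts per 1e6 counts, with library sizes scaled over all 18 libraries. S100A9 itself averaged 0.228 ± 0.174 CPM in shS100A9 and 6.18 ± 1.43 CPM in empty vector U937 cells, and 28.4 ± 1.73 CPM in overexpressing and 6.44 ± 2.72 CPM in empty vector THP-1 cells without drug (SD, n = 3 each). With Adavivint it averaged 104.5 ± 5.18 CPM in overexpressing and 13.6 ± 1.11 CPM in empty vector THP-1 cells, so the S100A9 level also differed between the drug groups. Its part in the drug effects was not tested. Of 12 myelomonocytic markers, 10 to 12 were above 1 CPM in each group. Of 5 mast-cell markers (KIT, CMA1, TPSAB1, CPA3 and MRGPRX2) 1 or 2 were, TPSAB1 in every group and KIT in the 4 groups without drug. MRGPRX2 was at 0 in 5 groups and CPA3 at 0 in 2, while CMA1 stayed below 1 CPM, and KIT reached 3.12 CPM on average at most. shS100A9 replicate 3 and empty vector replicate 2 of U937 stood apart: their counts differed from each other library of their group by a chi-square of at least 134.6 for each degree of freedom, where the remaining pairs differed by 13.1 and 8.05.

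The tryptase genes sit together on chromosome 16, in the coordinates of GENCODE 29 on GRCh38. The sequences compared are those of this reference, and the alleles of the cell lines were not examined. TPSAB1 (ENSG00000172236) spans chr16:1240696-1242554 on the plus strand, TPSB2 (ENSG00000197253) spans chr16:1227272-1230184 on the minus strand, and TPSD1 (ENSG00000095917) spans chr16:1256059-1258998 on the plus strand. The coding sequences of TPSAB1 and TPSB2 have 846 bases each and differ at 4 of them, an identity of 99.5%. Their longest identical run is 667 bases, and 86.7% of all stretches of 50 bases in one occur in the other. TPSD1 has 726 coding bases and differs from TPSAB1 at 78 of them (89.3% identity), and 8.03% of the stretches of 50 bases in TPSAB1 occur in it. All 4 differences between TPSAB1 and TPSB2 fall within coding bases 90 to 179, a stretch of 90 bases inside a coding exon that is shown because it is the coding part in which a read can tell these genes apart. It lies at chr16:1241160-1241249 (plus strand) for TPSAB1 and at chr16:1229641-1229730 (minus strand) for TPSB2, and is written 5′ to 3′ along each gene from the transcript sequences, with the differing bases in capitals.
TPSAB1: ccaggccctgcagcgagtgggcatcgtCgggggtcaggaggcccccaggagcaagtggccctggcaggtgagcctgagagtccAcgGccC
TPSB2: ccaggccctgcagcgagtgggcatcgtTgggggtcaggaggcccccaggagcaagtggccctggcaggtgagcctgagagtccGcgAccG

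The 2 tryptases TPSAB1 and TPSB2 were the members with the highest levels in every group. Per kilobase of exons, TPSAB1 averaged between 16.5 CPM in shS100A9 U937 cells and 56.5 CPM in empty vector U937 cells, which placed it between the percentiles 84.7 and 96.9 of all genes in the 6 groups. TPSB2 averaged between 3.97 and 12.6 CPM per kilobase, GATA2 between 0.474 and 2.54, and MS4A2 between 0.127 and 0.248. HDC, CPA3 and TPSD1 stayed below 1 CPM in every library, with 0 counts in 6, 10 and 8 of the 18 libraries.

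The mean TPSAB1 level ran from 85.4 CPM in empty vector U937 cells through 81.2 and 79.1 CPM in overexpressing and empty vector THP-1 cells with Adavivint to 50.6 and 40.9 CPM in the same THP-1 cells without drug and 24.9 CPM in shS100A9 U937 cells. Neighbours among the first 3 groups of this order overlapped, and neighbours among the other groups did not. Overlap of groups is given for the members as a description of their libraries, not as a test. Its share over all genes is not given here. TPSB2 had the same split, with 21.8, 21.8 and 20.8 CPM in overlapping groups (overexpressing with drug, empty vector U937 and empty vector with drug), followed by 13.4, 9.71 and 6.90 CPM in the 3 other groups, which did not overlap. GATA2 had another order: 11.3 CPM in overexpressing THP-1 cells with drug, 8.70 CPM in untreated and 8.24 CPM in treated empty vector THP-1 cells, 5.43 CPM in overexpressing cells without drug, and 2.44 and 2.11 CPM in shS100A9 and empty vector U937 cells. For GATA2 the 2 empty vector THP-1 groups overlapped, as did both U937 groups.

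**Figure D1:**
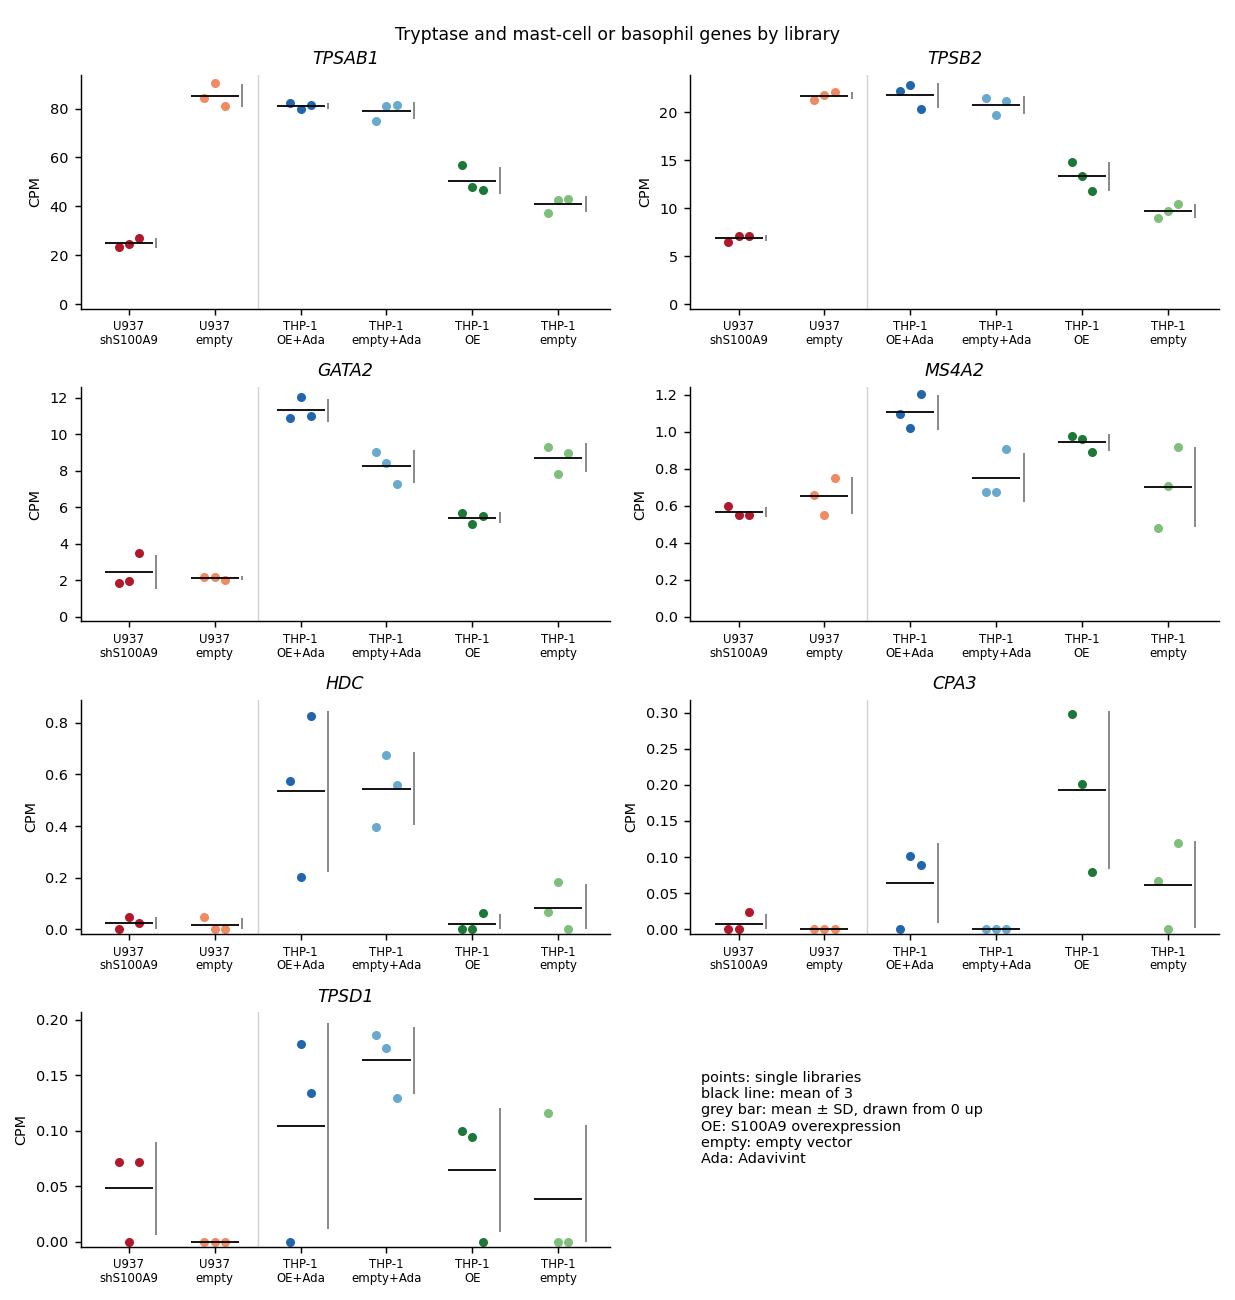
Level in CPM (vertical axes, linear and different for each gene) of the 7 members with a row, by group. Each point is 1 library, black lines are means of 3 and grey bars are the mean ± SD. TPSAB1 and TPSB2 sit lowest in shS100A9 U937 cells and are higher with Adavivint than without it in THP-1 cells, whereas GATA2 is lowest in U937 cells of both groups.

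The U937 comparison is the one in which the members were chosen, so its values are a description without a test. TPSAB1 had 23.2, 24.4 and 27.0 CPM in shS100A9 cells, against 84.3, 90.6 and 81.2 CPM in empty vector cells. TPSB2 had 6.49, 7.05 and 7.15 CPM in shS100A9 cells, against 21.3, 21.8 and 22.2 CPM in empty vector cells. Neither gene's groups overlapped, and the level was lower in shS100A9 cells by 3.45-fold for TPSAB1 (log2 fold change -1.78, SE 0.10) and by 3.17-fold for TPSB2 (log2 fold change -1.66). Summed as 1 feature, since reads of these genes can be shared, they were 3.38-fold lower. In bulk RNA, fewer cells that express a gene and less RNA per cell cannot be told apart. Over all 13016 genes tested in U937 cells, 1.54% were lower and 0.23% higher at an adjusted p below 0.05 in edgeR's quasi-likelihood test, 231 genes in all. That count lay between 18 and 362 with 1 library left out (18 without empty vector replicate 1). Without both libraries that stood apart, an alternative added after the data were seen, 4296 genes were called and the log2 fold changes were -1.81 for TPSAB1 and -1.69 for TPSB2.

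MS4A2 and GATA2 did not share this difference. TPSD1, HDC and CPA3 had too few counts in empty vector cells for a fall to be seen. MS4A2 had 0.596, 0.548 and 0.552 CPM in shS100A9 cells, against 0.660, 0.550 and 0.751 CPM in empty vector cells, which overlapped. GATA2 had 1.86, 1.97 and 3.49 CPM in shS100A9 cells, against 2.18, 2.16 and 2.00 CPM in empty vector cells. Its highest value came from replicate 3, 1 of the libraries that stood apart, and the log2 fold change of 0.21 was -0.15 without it. TPSD1 had 4, 0 and 6 counts in shS100A9 libraries and no count in empty vector libraries, HDC had 5 counts in all against 2, and CPA3 had 2 against 0.

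The first THP-1 comparison asked which genes differ when S100A9 is overexpressed without drug. Both tryptases were higher and GATA2 was lower in overexpressing cells, 3 of the 5 members that passed the filter on low counts. TPSAB1 had 56.8, 48.1 and 46.7 CPM in overexpressing cells, against 37.1, 42.4 and 43.2 CPM in empty vector cells. TPSB2 had 14.9, 13.4 and 11.8 CPM in overexpressing cells, against 8.94, 9.76 and 10.4 CPM in empty vector cells. The groups did not overlap for either gene, with overexpressing replicate 1 the highest for both. TPSAB1 rose 1.24-fold (log2 fold change 0.31, SE 0.07, adjusted p = 0.00566) and TPSB2 1.38-fold (log2 fold change 0.46, SE 0.09, adjusted p = 0.00223), and the sum of both 1.27-fold (adjusted p = 0.00262). The higher TPSB2 level was already known from these data when the members were chosen.

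GATA2 had 5.69, 5.10 and 5.51 CPM in overexpressing cells, against 9.32, 7.80 and 8.98 CPM in empty vector cells. These groups did not overlap either, and GATA2 fell 1.60-fold (log2 fold change -0.68, SE 0.11, adjusted p = 0.000853). The 2 tryptases and GATA2 kept these calls in 6 of 6 fits that left out 1 library. As background, 14.9% of the 15403 genes tested were higher and 13% lower in this comparison, against 2 members higher and 1 lower of 5. The 2 higher members are the tryptases, which can share reads and so are not independent of each other. HDC, among the 5, passed the filter through treated libraries alone. MS4A2 did not pass (log2 fold change 0.44, from -0.04 to 0.92 within 2 SE, adjusted p = 0.193), nor did HDC (log2 fold change -1.87, from -4.30 to 0.55, adjusted p = 0.274).

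Adavivint in empty vector THP-1 cells came with higher levels of both tryptases. TPSAB1 had 75.1, 81.0 and 81.3 CPM in treated cells and TPSB2 had 21.5, 19.7 and 21.2 CPM, against the untreated empty vector values given above. No treated library overlapped an untreated one, and TPSAB1 rose 2.00-fold (log2 fold change 1.00, SE 0.07, adjusted p = 5.95e-09) and TPSB2 2.22-fold (log2 fold change 1.15, SE 0.09, adjusted p = 1.8e-08). HDC, the histamine enzyme, had 17, 31 and 26 counts in treated libraries, against 4, 9 and 0 counts in untreated ones. The ratio of its summed counts was 6.74 (exact 95% interval 3.71 to 13.2, for counting error only). HDC passed the filter on low counts through treated libraries alone, so its test is given from the fit without a filter, in which it was higher (log2 fold change 2.74, adjusted p = 0.00594).

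GATA2 did not pass with the drug in empty vector cells, with 9.05, 8.42 and 7.26 CPM in treated libraries and a log2 fold change of -0.03 (from -0.25 to 0.18 within 2 SE, adjusted p = 0.792). MS4A2 did not pass either, at 0.675, 0.676 and 0.904 CPM with drug, against 0.480, 0.707 and 0.916 CPM without (log2 fold change 0.16, from -0.34 to 0.66, adjusted p = 0.551). The drug changed most of the transcriptome in these cells: 44.2% of the genes tested were higher and 41.1% lower, and a call was the usual outcome. Levels and fold changes are relative to the rest of each library, so a change in total RNA per cell would not be seen. Of the 4 members that passed the filter in libraries with and without drug, 2 were higher and none lower. The 2 are the tryptases, which can share reads. Without a filter on low counts CPA3 was also called lower (adjusted p = 0.0474).

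In overexpressing cells both tryptases and GATA2 were higher with Adavivint. These are 3 of the 4 members that passed the filter in libraries with and without drug, and the tryptases among them can share reads. TPSAB1 had 82.2, 79.9 and 81.4 CPM and TPSB2 had 22.2, 22.9 and 20.4 CPM in treated cells, all above the untreated overexpressing cells. TPSAB1 rose 1.66-fold (log2 fold change 0.73, SE 0.07, adjusted p = 1.71e-07) and TPSB2 1.69-fold (log2 fold change 0.75, SE 0.09, adjusted p = 1.45e-06). GATA2 had 10.9, 12.1 and 11.0 CPM in treated cells, which is above every other THP-1 library. It rose 2.15-fold (log2 fold change 1.10, SE 0.11, adjusted p = 2.87e-07), where 43.4% of all genes tested were higher and 41.3% lower.

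HDC had 22, 8 and 37 counts in treated overexpressing libraries, against 0, 0 and 4 counts in untreated ones. The ratio of summed counts was 27.0 (exact 95% interval 10.1 to 102), and in the fit without a filter HDC was higher (log2 fold change 4.58, adjusted p = 0.000436). All untreated counts came from replicate 3, and without it no count is left in the untreated group. MS4A2 had 1.09, 1.02 and 1.20 CPM with drug, against 0.974, 0.958 and 0.892 CPM without. These groups did not overlap, but the difference did not pass (log2 fold change 0.28, from -0.20 to 0.75 within 2 SE, adjusted p = 0.288).

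GATA2 responded to the drug differently with each vector. The drug effect was larger in overexpressing than in empty vector cells by 1.14 on the log2 scale (SE 0.15, adjusted p = 0.000664), and this difference passed in 12 of 12 fits that left out 1 library, between 1.05 and 1.21. Across all genes 8.04% had a higher and 11.2% a lower log2 drug effect, taken with its sign, in overexpressing cells. With library totals in place of scaled library sizes, the genes with a higher effect numbered 961 and those with a lower one 2379. The scaled fit had 1239 and 1729.

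For the tryptases the difference had the other sign. The drug effect on TPSB2 was smaller in overexpressing cells by 0.40 on the log2 scale (log2 difference -0.40, SE 0.12, adjusted p = 0.0385), a call that was kept in 2 of 12 fits that left out 1 library (without overexpressing replicate 3 and without empty vector replicate 3), where the highest adjusted p was 0.0903, and that was lost with the replicate number as a block (adjusted p = 0.0607). For TPSAB1 the difference was -0.27 (SE 0.10) and did not pass (adjusted p = 0.0666), while the sum of both genes gave -0.30 (adjusted p = 0.0403). Over all alternatives run, 8 of 19 gave an adjusted p below 0.05 for TPSB2 (0.0239 to 0.0903) and 4 of 19 for TPSAB1 (0.0403 to 0.139). HDC and MS4A2 did not pass, with log2 differences of 1.85 (from -0.87 to 4.58 within 2 SE) and 0.11 (from -0.58 to 0.80).

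**Figure D2:**
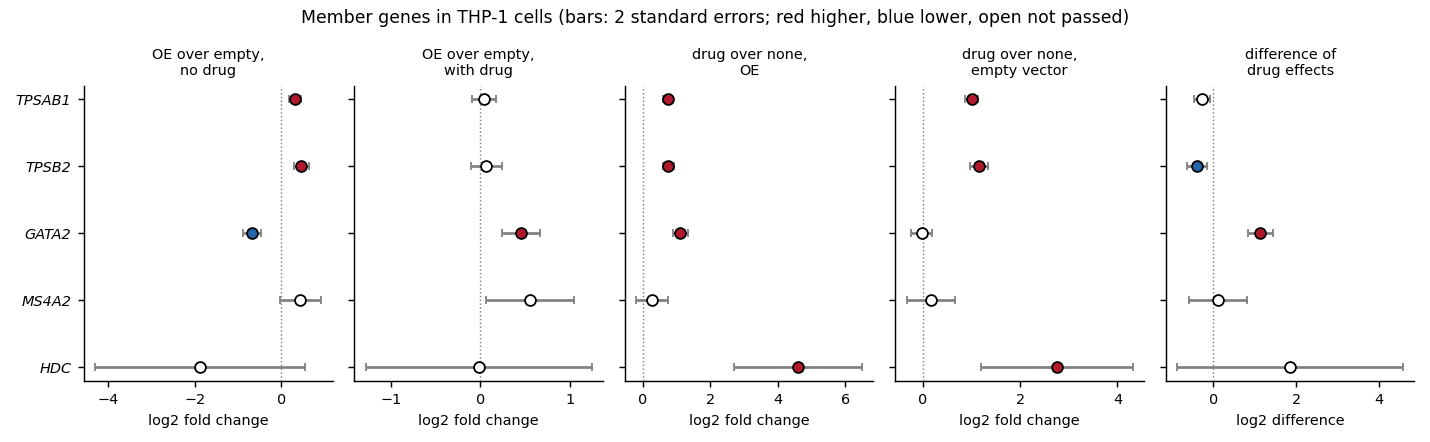
Log2 fold changes (horizontal axes, a different scale in each panel) of the 5 members tested in THP-1 cells, for overexpressing (OE) over empty vector cells without and with Adavivint, for the drug over none with each vector, and for the difference of these drug effects. Bars are 2 SE, red and blue points are higher and lower at an adjusted p below 0.05, and open points did not pass. GATA2 is blue for overexpression without drug and red for the difference of drug effects (1.14), and HDC, which passed the filter through treated libraries alone, has the widest bars in every panel.

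With drug, overexpressing and empty vector cells were close in tryptase level. TPSAB1 averaged 81.2 ± 1.14 CPM in overexpressing and 79.1 ± 3.49 CPM in empty vector cells (log2 fold change 0.04, from -0.10 to 0.17 within 2 SE, adjusted p = 0.794), and TPSB2 21.8 ± 1.31 and 20.8 ± 0.959 CPM (SD, n = 3 each; log2 fold change 0.07, from -0.10 to 0.24, adjusted p = 0.689). Both pairs of groups overlapped. GATA2 averaged 11.3 ± 0.642 CPM in overexpressing and 8.24 ± 0.910 CPM in empty vector cells with drug and was the 1 member that passed (log2 fold change 0.46, SE 0.11, adjusted p = 0.021). That call was lost without overexpressing with drug 2 (adjusted p = 0.0905), without empty vector with drug 2 (0.0697) and without empty vector with drug 3 (0.0625), within a range of 0.00161 to 0.0905 over 13 alternatives. In this comparison 3.69% of all genes were higher and 4.8% lower, 569 and 740 genes, which became 393 and 1555 with library totals. MS4A2 had a log2 fold change of 0.55 (from 0.06 to 1.05 within 2 SE) and did not pass (adjusted p = 0.192), and HDC had -0.02 (from -1.28 to 1.25). The comparisons of vectors and of drug share libraries, so their values stand side by side and are not independent of each other.

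TPSAB1 and TPSB2 kept a similar ratio of counts in each library. TPSB2 made up 20.7 ± 1.15% of the counts assigned to either gene (SD over 18 libraries), with a lowest share of 18.7% and a highest of 22.4%. The share lay between 20.9 and 22.4% in shS100A9 and between 19.4 and 21.4% in empty vector U937 cells. In THP-1 cells it lay between 20.0 and 22.2% in overexpressing cells with drug, 19.6 and 22.3% in empty vector cells with drug, 20.2 and 21.8% in overexpressing cells, and 18.7 and 19.5% in empty vector cells. Every untreated empty vector THP-1 library lay below every other THP-1 library, and the 95% counting intervals did not overlap in 6 of the 27 pairs. The sources used here do not say how reads that fit both genes were placed, so the share of each gene is uncertain and the sum is the safer measure.

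**Figure D3:**
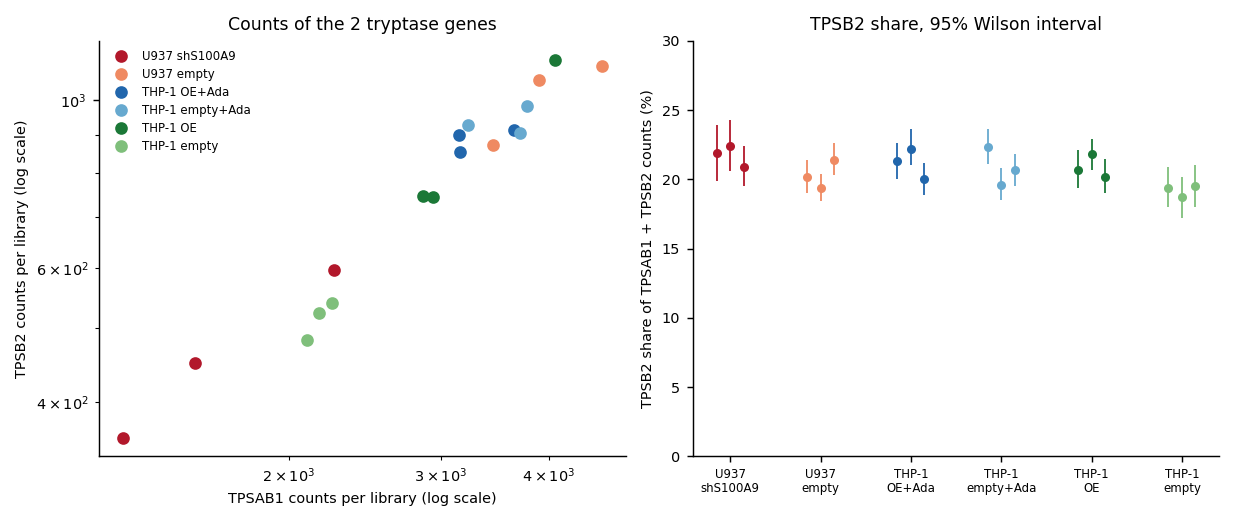
Left, counts of TPSB2 (vertical, log scale) against counts of TPSAB1 (horizontal, log scale) in each of the 18 libraries, not corrected for depth. Right, share of TPSB2 in the sum of both genes' counts by library, with 95% Wilson intervals that cover counting error only. The points of the left panel lie along 1 line, and the shares stay between 18.7 and 22.4%.

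CPA3 and TPSD1 were too low for the filter. CPA3 had 0, 4 and 4 counts in overexpressing libraries with drug, none in empty vector libraries with drug, 15, 17 and 5 in overexpressing libraries and 4, 0 and 6 in empty vector libraries. The summed counts without drug gave a ratio of overexpressing to empty vector cells of 3.00 (exact 95% interval 1.46 to 6.76, for counting error only), and edgeR without a filter did not call it (adjusted p = 0.258). With drug over without drug in empty vector cells, the 0 against 10 counts of CPA3 allow a ratio of up to 0.528 (upper bound of the exact 95% interval). TPSD1 had 13 counts in overexpressing and 22 in empty vector cells with drug, and 13 and 7 in the same cells without drug. Its ratio with drug over without drug in empty vector cells was 3.72 (exact 95% interval 1.54 to 10.3), and without a filter it did not pass (adjusted p = 0.143).

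CPA3 (ENSG00000163751) lies at chr3:148865256-148897196 on the plus strand and MS4A2 (ENSG00000149534) at chr11:60088261-60098466 on the plus strand. HDC (ENSG00000140287) lies at chr15:50241947-50266026 on the minus strand and GATA2 (ENSG00000179348) at chr3:128479427-128493185 on the minus strand. GATA factors bind the core GATA, and the 250 bases before the RefSeq start were searched on both strands for GATA preceded by A or T and followed by A or G. RefSeq promoters (GRCh38.p14) were found for 5 of the 8 members, with 6 promoters in all, and 3 of the 6 hold a match. Among all 35116 promoters searched in the same way 22.3% hold one. The CPA3 promoter, at chr3:148865046-148865295 (plus strand), holds 2 matches, and that of MS4A2, at chr11:60088414-60088663 (plus strand), holds 1 on the other strand. Both are shown because GATA2 is a member and these are the promoters with a match among the members with a row. Matches are in capitals and are a description of letters, not of binding.
CPA3: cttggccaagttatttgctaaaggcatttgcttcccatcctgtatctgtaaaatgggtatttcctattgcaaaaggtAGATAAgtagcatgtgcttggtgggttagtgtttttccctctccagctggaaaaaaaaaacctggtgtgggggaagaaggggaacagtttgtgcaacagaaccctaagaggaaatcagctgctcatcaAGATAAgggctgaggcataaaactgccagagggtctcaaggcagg
MS4A2: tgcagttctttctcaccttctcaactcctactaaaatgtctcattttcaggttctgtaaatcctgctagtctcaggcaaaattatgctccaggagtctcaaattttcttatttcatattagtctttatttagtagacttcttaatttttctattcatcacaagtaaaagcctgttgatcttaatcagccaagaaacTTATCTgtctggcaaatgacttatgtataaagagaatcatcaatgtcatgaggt

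Beyond the members, genes of the same pathways were followed in lists chosen with earlier results of these data known. In the IgE receptor signalling list, the adaptors and kinases that carry the signal from the receptor, 11 of 13 genes fell and 1 rose with Adavivint in overexpressing cells, with a median log2 fold change of -1.36. Over all genes 41.3% were lower and 43.4% higher, with a median of 0.04. In empty vector cells 11 fell and 2 rose (median -1.16), where 41.1% of all genes were lower and 44.2% higher (median 0.06). The genes that rose were the adaptor LAT with both vectors and the adaptor GAB2 in empty vector cells alone. Their log2 fold changes were 1.68 (LAT, overexpressing), 1.69 (LAT, empty vector) and 0.94 (GAB2, empty vector). The adaptor LAT2 averaged 35.8 ± 2.18 and 318 ± 16.3 CPM in overexpressing cells with and without drug, and 33.9 ± 4.01 and 334 ± 12.1 CPM in empty vector cells with and without drug (SD, n = 3 each). That was 8.62-fold lower with the drug in overexpressing cells (adjusted p = 3.31e-13) and 9.54-fold lower in empty vector cells (adjusted p = 2.46e-13). The adaptor LCP2 fell 3.48-fold and 4.11-fold, and the phospholipase PLCG1 4.51-fold and 4.23-fold, in overexpressing and empty vector cells. FCER1G, the signalling gamma chain of the receptor, was picked out after its values were seen. It averaged 26.1 ± 2.61 and 55.9 ± 0.630 CPM in overexpressing cells with and without drug, and 27.1 ± 1.25 and 49.6 ± 1.12 CPM in empty vector cells with and without drug, and it fell 2.08-fold and 1.77-fold.

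Overexpression without drug came with 5 of these 13 genes higher and 1 lower, where 14.9% of all genes were higher and 13% lower. Of these calls, BTK (higher) and PLCG1 (lower) were kept in 5 and 4 of 6 fits that left out 1 library. The kinase FYN averaged 44.1 ± 1.55 CPM in overexpressing and 21.3 ± 3.33 CPM in empty vector cells and rose 2.07-fold (log2 fold change 1.05, adjusted p = 5.69e-05), and the adaptor GAB2 rose by 0.54 on the log2 scale (adjusted p = 0.00226). The log2 drug effect, taken with its sign, was higher in overexpressing cells for 1 of the 13 and lower for 3. Over all genes these shares were 8.04% and 11.2%. GAB2 differed by -0.89 (adjusted p = 0.00198) and FYN by -0.83 (adjusted p = 0.00569). FYN fell with the drug with both vectors, more in overexpressing (log2 fold change -2.99) than in empty vector cells (-2.16). PLCG2 also fell more in overexpressing cells (-1.40 against -1.16), and LCP2 fell less (-1.80 against -2.04). The differences of PLCG2 (-0.25) and LCP2 (0.24) kept their calls in 5 and 2 of 12 fits that left out 1 library.

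Granule and histamine genes fell in 6 of 8 cases tested with the drug in overexpressing cells and in 7 of 8 in empty vector cells (median log2 fold changes -0.79 and -1.29), and 1 rose with each vector, where 41.3% and 41.1% of all genes fell and 43.4% and 44.2% rose. Serglycin (SRGN), the proteoglycan that holds tryptases in the granule, averaged 317 ± 9.23 CPM in overexpressing cells with drug and 251 ± 25.4 CPM in empty vector cells with drug, against 410 ± 25.2 and 652 ± 41.5 CPM in the same cells without drug. It fell 1.59-fold with overexpression in untreated cells (adjusted p = 0.000112), and its drug effect differed between the vectors by 1.00 on the log2 scale (adjusted p = 0.000185). CTSC, the protease that activates granule proteases, fell 2.65-fold and 3.32-fold with drug in overexpressing and empty vector cells, cathepsin G (CTSG) 2.52-fold and 3.28-fold, and the vesicle fusion gene VAMP8 2.13-fold and 2.39-fold. The gene that rose was HNMT, which inactivates histamine by methylation. It averaged 58.5 ± 2.97 and 35.8 ± 3.07 CPM in overexpressing cells with and without drug, and 49.5 ± 5.85 and 24.1 ± 2.39 CPM in empty vector cells with and without drug. AOC1, a histamine-degrading oxidase named after its values were seen, fell with the drug. Its log2 fold changes were -1.63 in overexpressing and -1.61 in empty vector THP-1 cells. In U937 cells AOC1 had 1.79, 1.80 and 1.51 CPM with shS100A9, against 10.1, 7.11 and 10.4 CPM with the empty vector, a difference given without a test.

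In the drug counts of the next lists, genes that passed the filter through treated libraries alone or untreated libraries alone are left out. This was judged among all 12 THP-1 libraries. Among lipid mediator genes, 2 rose and 3 fell of 5 with the drug in overexpressing cells, and 2 rose and 2 fell in empty vector cells (median log2 fold changes -0.67 and 0.17). These shares are near those of all genes, of which 43.4% and 44.2% rose and 41.3% and 41.1% fell. PTGDR2, the prostaglandin D2 receptor of basophils and eosinophils, averaged 11.3 ± 0.239 and 0.276 ± 0.0155 CPM in overexpressing cells with and without drug, and 10.2 ± 1.74 and 0.129 ± 0.0684 CPM in empty vector cells with and without drug. It rose 41.7-fold and 82.1-fold, and in the fit without a filter it was higher with both vectors (adjusted p = 3e-12 and 2.04e-12). Its summed counts were 1388 with and 55 without drug in overexpressing cells, and 1382 and 20 in empty vector cells. Among untreated libraries only the 3 overexpressing ones were past the cut of the filter, so the empty vector fold change rests on few untreated counts. The cyclooxygenase gene PTGS2 rose 8.38-fold and 6.52-fold, and ALOX5AP, which helps 5-lipoxygenase make leukotrienes, fell 2.72-fold and 2.93-fold, in overexpressing and empty vector cells.

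Surface receptors of mast cells and basophils fell in 5 of 10 cases with the drug in overexpressing and 6 in empty vector cells. The counts of higher genes were 1 and 2, and the median log2 fold changes were -0.69 and -1.64. Over all genes 41.3% and 41.1% were lower and 43.4% and 44.2% higher. SIGLEC6, an inhibitory lectin of mast cells, fell 3.71-fold and 3.79-fold, and the interleukin-18 receptor gene IL18R1 7.61-fold and 5.65-fold, in overexpressing and empty vector cells. CD63, a granule membrane protein used to read out basophil activation, rose 1.87-fold and 1.60-fold. KIT, the receptor on which mast cells depend, was named after its values were seen: it averaged 0.810 ± 0.182 and 2.67 ± 0.286 CPM in overexpressing cells with and without drug, and 0.826 ± 0.241 and 2.67 ± 0.0210 CPM in empty vector cells with and without drug, and it fell 3.19-fold and 3.12-fold.

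Of the transcription factors that work with GATA2, 3 of 12 rose and 7 fell with the drug in overexpressing cells, and 3 rose and 6 fell in empty vector cells, with median log2 fold changes of -0.21 and -0.20. Over all genes 43.4% and 44.2% rose and 41.3% and 41.1% fell. TAL1, a factor of blood stem cells and of the erythroid and mast-cell lines, had 6.84, 6.69 and 8.50 CPM in overexpressing cells with drug, against 0.159, 0.166 and 0.0955 CPM without drug. It had 8.26, 9.19 and 9.76 CPM in empty vector cells with drug, against 0.0828, 0.0404 and 0.0996 CPM without drug. TAL1 passed the filter through treated libraries alone and is not in these counts. Its summed counts were 907 with and 28 without drug in overexpressing cells, a ratio of 52.2 (exact 95% interval 35.9 to 79.0), and 1229 and 12 in empty vector cells, a ratio of 121 (69.2 to 235). In the fit without a filter it was higher with both vectors (adjusted p = 2.61e-12 in overexpressing and 1.17e-12 in empty vector cells). MITF, the factor on which the mast-cell line depends, rose 2.83-fold and 3.03-fold, while RUNX1 fell 4.13-fold and 5.00-fold and LMO2, a partner of TAL1, fell 3.10-fold and 3.78-fold, in overexpressing and empty vector cells. CEBPA, a granulocyte and monocyte factor, fell with overexpression in untreated cells (log2 fold change -0.29, adjusted p = 0.00163), and its drug effect was larger in overexpressing cells by 0.50 (adjusted p = 0.000966).

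Eosinophil granule genes, which basophils share in part, rose in 1 and fell in 2 of 4 cases with the drug in overexpressing cells. In empty vector cells 2 rose and 2 fell. Over all genes 43.4% and 44.2% rose and 41.3% and 41.1% fell. PRG3 and IL5RA, which passed the filter through treated libraries alone, are not in these counts. PRG2, the eosinophil major basic protein, averaged 17.0 ± 2.25 and 1.48 ± 0.269 CPM in overexpressing cells with and without drug, and 21.7 ± 1.89 and 1.65 ± 0.130 CPM in empty vector cells with and without drug. It rose 12.0-fold and 13.6-fold. Its homologue PRG3 had 452 summed counts in overexpressing and 380 in empty vector cells with drug and none without drug. Set against the floor of 3 counts over a group, these are ratios of 243 and 150. The lower bounds of the exact 95% interval were 197 and 121. The ribonuclease genes RNASE3 and RNASE2 fell, RNASE3 2.82-fold and 3.74-fold and RNASE2 3.54-fold and 4.60-fold, in overexpressing and empty vector cells.

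**Figure D4:**
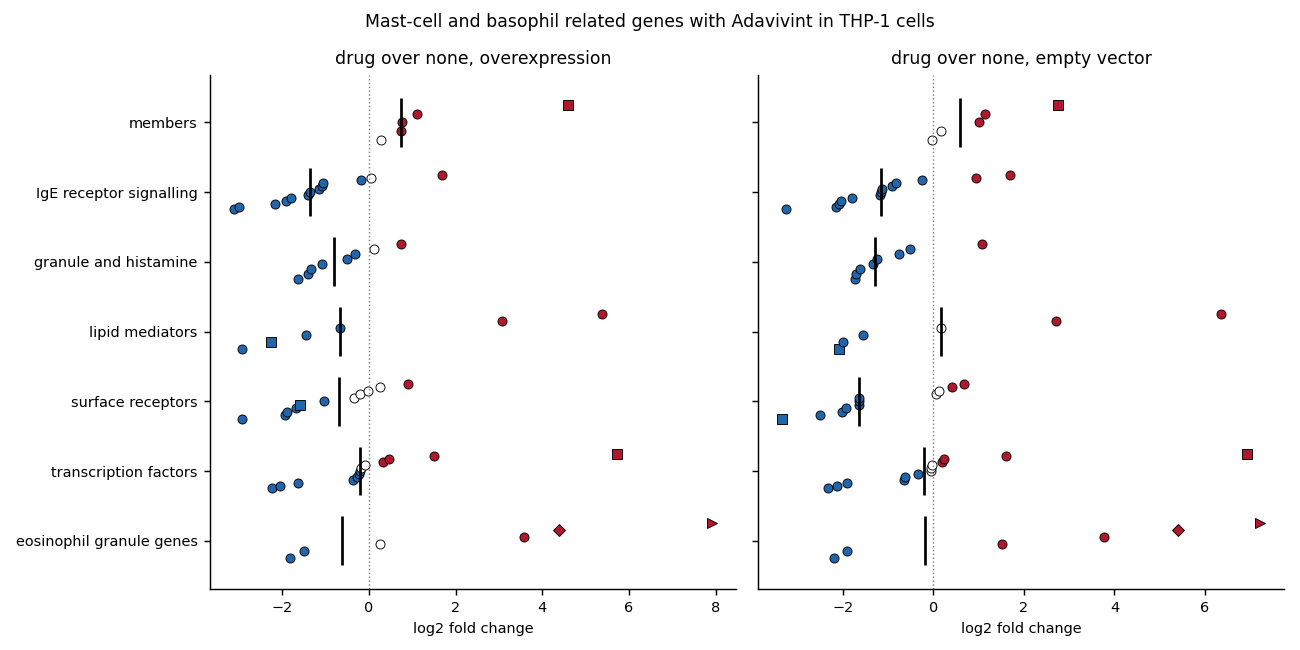
Log2 fold changes (horizontal axes) with Adavivint in overexpressing (left) and empty vector (right) THP-1 cells for the members and 6 lists of related genes. Each point is 1 gene that passed the filter, red higher, blue lower, open not passed, and squares are genes that passed it through libraries with drug alone or without drug alone. Black bars are list medians without the squares, the triangle (ratio of PRG3 to the floor of 3 counts) and the diamond (ratio of counts of IL5RA). IgE receptor signalling and granule genes lie mostly left of 0, and the members lie at or right of 0.

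The comparisons of overexpression and of the drug share the untreated libraries, so their list counts stand side by side. Counts for overexpression take in every gene tested, also those that passed the filter through treated or untreated libraries alone. Among these, TAL1, PRG3 and IL5RA passed through treated libraries alone, and PRG3 had no count without drug. Without drug, where 14.9% of all genes were higher and 13% lower, 1 granule gene was higher and 2 lower of 8, 1 lipid mediator gene was higher of 6, 2 surface receptors were higher and 2 lower of 11, 2 factors were higher and 2 lower of 13, and 1 eosinophil gene was higher and 2 lower of 6. Of these calls, VAMP8, FLI1 and EPX were kept in 0 of 6 fits that left out 1 library, CD9 in 1, RUNX1 in 2 and PTGDR2 in 4. With drug, where 3.69% were higher and 4.8% lower, these lists had between 0 and 2 calls each for overexpressing over empty vector cells, and the IgE receptor signalling list had 1 higher and 2 lower of 13. Of calls with drug, RNASE2 was kept in 0 of 6 fits that left out 1 library, RNASE3 in 1, PTGS1 and INPP5D in 2. PLCG1 and CEBPA were kept in 3, SRGN in 4 and LYN in 6. Among drug effects, NDST2 was kept in 2 of 6 such fits in overexpressing and 3 in empty vector cells. LTC4S in overexpressing and SIGLEC8 in empty vector cells were kept in 2. LYL1 in overexpressing and SLC18A2 and ZFPM1 in empty vector cells were kept in 4. Of 6 genes that start within 150 kb of TPSAB1 or TPSB2, 4 were tested. BAIAP3 rose and TSR3 and GNPTG fell with the drug with both vectors. In overexpressing and empty vector cells 43.4% and 44.2% of all genes rose and 41.3% and 41.1% fell, so a call was the usual outcome. None of these 3 neighbours passed with overexpression without drug. BAIAP3 averaged 0.825 ± 0.138 CPM in overexpressing cells with drug and 0.302 ± 0.0849 CPM without drug, and 0.954 ± 0.332 and 0.217 ± 0.0674 CPM in empty vector cells with and without drug.

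Across the 12 THP-1 libraries, the summed tryptase level was most like EEF2 (Pearson's r = 0.998 on log2(CPM + 1)), SLC25A6 (0.992), CKB, ELFN2 and CTDSP2 (0.991 each). These values describe libraries that fall into treated and untreated ones, and 3355 of 12983 genes compared had an r above 0.9. The genes most like GATA2 were NAT1 (0.970), CKS2 (0.944), TP53INP2 (0.942), IL32 (0.941) and ZNF480 (0.933), and 29 of 12984 genes had an r above 0.9.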

How the data were processed

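The deposited values are read counts of 18 libraries in 1 table with a row for each Ensembl gene, whole numbers that the authors did not normalize. HISAT2 2.0.4 is named in the submitters' processing notes. Not given in the sources used here are the strand setting, the annotation, the build and the counting tool. Without a known strand setting, reads of antisense and overlapping genes cannot be told apart, and near-identical genes such as TPSAB1 and TPSB2 can share reads. Symbols were found for 18642 of 18670 identifiers, and positions come from GENCODE 29.

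Tests used edgeR 4.0.16 in R 4.3.3: quasi-likelihood F tests with TMM factors, filterByExpr and Benjamini-Hochberg adjustment over all genes tested, with an adjusted p below 0.05 called a change. One fit of the 12 THP-1 libraries gave 5 contrasts, the difference of drug effects included, and a fit of the 6 U937 libraries gave the background there. An SE is the log2 fold change over the root of its F value. Levels in CPM were scaled with TMM factors over 18 libraries. A group without counts was given a floor of 3 counts; intervals and floors cover counting error only. All replicate pairs differed by more than sampling noise. The fits were tested on simulated data.

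Named genes were the 8 members, the sum of TPSAB1 and TPSB2, up to 4 genes per list with the smallest p in a comparison, the 5 genes most alike to a member in THP-1 libraries, and S100A9. Members and lists were chosen with earlier results of these data known. Alternatives were other scalings, DESeq2 1.42.0, other filters, the replicate number as a block, 2-group fits, summed tryptases and leaving out each library. A gene that was tested is not reported here.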

Additional observations from a re-analysis of the deposited data

Results flagged for a closer look

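The response to Adavivint differed between the vectors for 2 members by the test of that difference. For GATA2 the log2 drug effect was larger in overexpressing than in empty vector THP-1 cells by 1.14 (edgeR adjusted p = 0.000664), from log2 drug effects of 1.10 and -0.03. For TPSB2 it was smaller, with a log2 difference of -0.40 (adjusted p = 0.0385), from log2 drug effects of 0.75 and 1.15. The TPSB2 difference was lost in 10 of 12 fits with 1 library removed. The cause of either difference was not tested.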

How the results depend on the processing

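The choice of setting reversed no direction of a called member in the alternatives run, and the 42 mean levels moved by a ratio of 0.977 to 1.03 with library totals. In overexpression without drug 4307 genes were called, between 2735 and 4983 with 1 library left out (2735 without overexpressing replicate 2). For overexpression under Adavivint the count of 1309 became 2016 with DESeq2 and lay between 502 and 1174 with 1 library left out, and the members called higher lay between 0 and 1. For the difference of drug effects 2968 genes were called, between 1885 and 3724 with 1 library left out (1885 without overexpressing replicate 2). Members with a smaller drug effect, 1 as reported, numbered 2 with library totals and between 0 and 2 with 1 library left out. Without a filter 1 member, CPA3, was lower with the drug in empty vector cells, with 0 counts against 10 without drug. In U937 cells 231 genes were called, 879 with DESeq2, 4296 without both libraries that stood apart, and between 18 and 362 with 1 library left out. The lower count was reached without empty vector 1, with 20 without empty vector 3 and 21 without shS100A9 1 or shS100A9 2. The cause of these shifts was not tested.

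Samples with the same replicate number were not treated as pairs. Their deviations correlated between -0.13 and 0.11 in THP-1 cells and at 0.36, -0.61 and -0.55 in U937 cells. The values of -0.61 and -0.55 are those of replicates 2 and 3, which hold the U937 libraries that stood apart, so they cannot show whether samples were paired. With the replicate number as a block, 3 genes were called in U937 cells, and 0 members had a smaller drug effect in overexpressing cells, since TPSB2 had an adjusted p of 0.0607; no other call of a member changed.

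Depth limits HDC, CPA3 and TPSD1, with totals of 165, 57 and 65 counts over 18 libraries. With 3 libraries a group no MS4A2 difference passed in THP-1 cells, which does not show equal levels, given the width of the stated intervals.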
